A study of Zea mays with 4 samples.

Results

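Photosynthesis and chlorophyll genes were followed in developing maize endosperm, the part of the kernel that stores starch and protein and is not itself green. The genes were chosen by description: a gene was taken when the protein description in the deposited tables held photosystem, chlorophyll, light-harvesting, cytochrome b6, ribulose, plastocyanin, ferredoxin, plastoquinone or magnesium chelatase, and pentatricopeptide descriptions were left out. This gave 104 of the 34567 genes listed in any library. The terms photosystem (29 genes), chlorophyll (26) and ferredoxin (24) brought in most of them, and light-harvesting, written with a hyphen, and magnesium chelatase brought in none. RNA was sequenced from endosperm of a mutant labelled dek and of wild type (WT), at 10 days after pollination, in libraries dek A, dek B, WT A and WT B. A library held RNA of 8 to 10 pooled individuals, and repeats were taken from separate ears segregating for the mutation. The labels name neither the mutated gene nor the maize line, so no transcript could be used to check the genotype, and p-values measure the spread between pools, not between kernels.

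In a green leaf, photosystem II, the cytochrome b6-f complex and photosystem I pass electrons from water to ferredoxin, and ferredoxin-NADP reductase turns them into NADPH for carbon fixation by Rubisco. The core proteins of these complexes are encoded in the plastid genome, while antenna proteins, small subunits and assembly factors are encoded in the nucleus and imported. Plastids of non-green tissue such as endosperm carry other forms of ferredoxin and its reductase, which supply electrons to enzymes of nitrogen and sulfur assimilation, so the description rule gathers genes with and without a role in light capture.

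The estimated counts summed to 14776699 and 14703218 in dek A and B and to 14562359 and 13119658 in WT A and B. Gene markers of endosperm, mostly zein storage proteins, were summed over 32 genes. The sums were 5940 and 9080 CPM (counts scaled to a common library size) in dek A and B, against 67600 and 64300 in WT A and B. Of 30 tested, 29 were called lower in dek, where 8.85% of all genes tested were. The median log2 fold change over the 30 was -7.9. Markers of embryo, another part of the kernel, summed to 254 and 239 CPM in dek, against 985 and 1150 in WT, over 20 genes. Markers of the basal transfer layer, the endosperm cells that take up nutrients, summed to 3850 and 2330 CPM in dek, against 1370 and 294 in WT. By FPKM both dek libraries lay above both WT libraries for all 9 genes, and for 42.8% of all listed genes. Of the 9, 2 were called higher, where 7.98% of all genes tested were. Markers of aleurone, the outer endosperm layer, summed to 394 and 422 CPM in dek, against 477 and 445 in WT, over 3 genes. The part of these tissue differences in the results below was not tested. Of 5 markers of green leaf tissue, the leaf PEP carboxylase gene pep1, 2 rbcS genes and a Rubisco activase gene were each under 1 FPKM in every library. The remaining marker averaged 1.602 FPKM over the 4 libraries and alone was tested, with a log2 fold change of -0.71 and no call. The 5 together summed to 3.25 and 3.54 CPM in dek, against 5.92 and 5.58 in WT. Pyruvate, phosphate dikinase, an enzyme of leaf metabolism also planned as a marker, is not among the 5. Its most abundant gene averaged 2220.29 FPKM over the 4 libraries, and its values are given further below. Of 2 pericarp and maternal markers, p1 (GRMZM2G064597) had 0 and 0.18 FPKM in dek A and B and was at 0 in both WT libraries, and c2 (GRMZM2G422750) had 0.18 and 0.11 FPKM in dek, against 0.08 and 0.21 in WT. In bulk RNA, fewer cells of a type and less RNA per cell cannot be told apart.

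Most of these genes were barely expressed in either genotype. The mean over the 4 libraries was under 1 FPKM (fragments per kilobase of gene, scaled to the fragments counted in the library) for 73 of the 104 genes, or 70.2%, against 35.5% of all listed genes. Among 59 genes of the photosynthetic apparatus itself (photosystems, antenna, cytochrome b6-f, plastocyanin and Rubisco), 48 were under 1 FPKM and none reached 10 FPKM. The 10 genes at or above 10 FPKM were ferredoxins, a ferredoxin-NADP reductase, ferredoxin-dependent enzymes, a protein of post-illumination chlorophyll fluorescence and sugar-phosphate enzymes with ribulose in their names. Ferredoxin 3 (fdx3, GRMZM2G053458) alone held 60.6% and 63.3% of the summed FPKM of the 104 genes in dek A and B, against 67.8% and 65.5% in WT A and B.

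**Figure D1:**
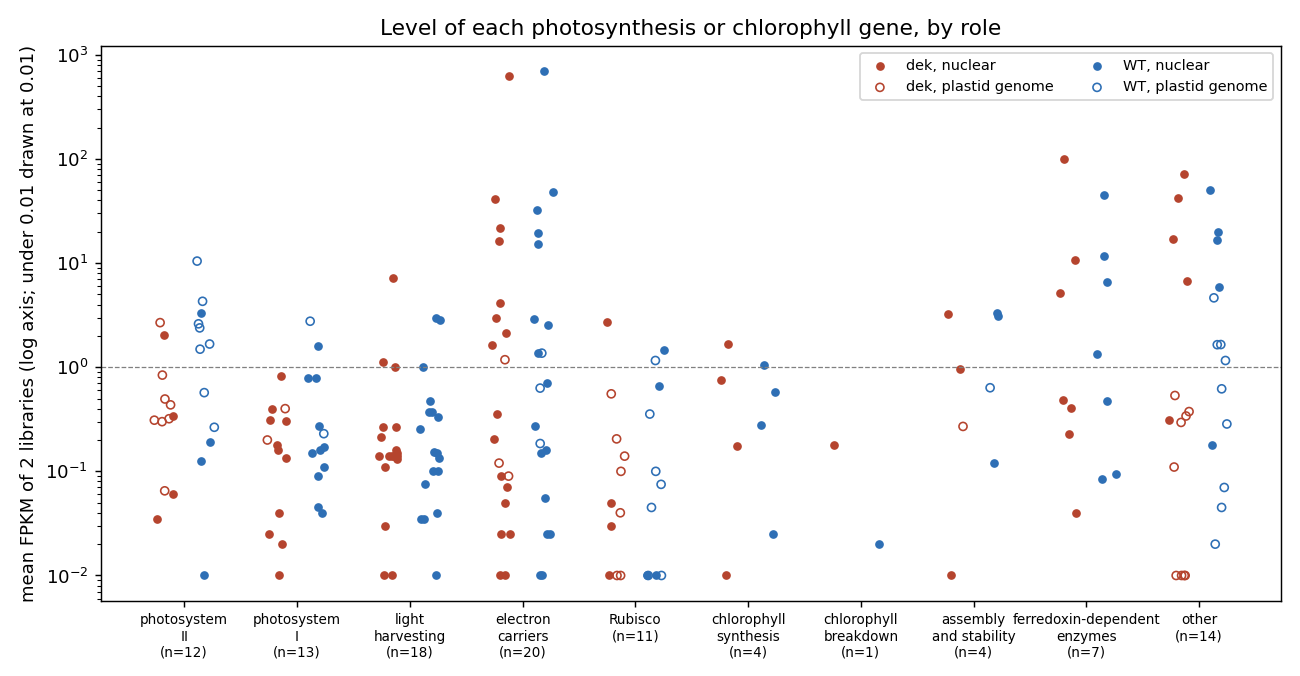
Mean FPKM of the 2 dek (red, left) and 2 WT (blue, right) libraries on a log axis, a point per gene, for the 104 genes sorted by role; open points are gene models of plastid genome proteins and the dashed line is 1 FPKM. Of the genes, 73 lie under 1 FPKM on average, and the highest point is fdx3 among the electron carriers.

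The comparison asked which of these genes differed between dek and WT endosperm. The test was edgeR's quasi-likelihood test on all genes, with TMM scaling (a per-library factor that removes the bulk shift between libraries) and Benjamini-Hochberg adjustment, called at an adjusted p under 0.05. After the filter on low counts 43 of the 104 genes were tested, 41.3%, against 71.2% of all genes. Of the 43, 3 were higher in dek (6.98%) and 13 lower (30.2%), where 7.98% of all 24624 genes tested were higher and 8.85% lower, 16.8% in either direction. The median log2 fold change, dek over WT, was -1.07 over the 43 genes and 0.01 over all genes tested. Of the 43, 8 had at least 10 counts in both WT libraries and not in both dek libraries and 3 the reverse, so that the filter favoured a difference in those genes. The 13 lower genes held 4 of the first kind and 9 with at least 10 counts in every library. The 4 were BGI_novel_G002232, GRMZM2G085646, GRMZM2G463640 and GRMZM2G383052. Of the 16 calls, 14 were lost without dek A, 13 without dek B, 4 without WT A and 6 without WT B, and 2 held without any 1 library, those of GRMZM2G359127 and GRMZM2G450705.

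Of the 13 lower calls 8 were gene models of plastid genome proteins. Of 30 such models 15 were tested, 8 were lower in dek and none higher, with a median log2 fold change of -2.64. At an unadjusted edgeR p under 0.05, 14 were lower and none higher, and the share of all genes at that threshold is not given here. With the DESeq2 Wald test 12 were lower and none higher, where that test called 2647 of all 24624 genes lower and 2155 higher. Of the 15, 5 had at least 10 counts in both WT libraries and not in both dek libraries, so that the filter bears on the absence of higher calls and on the median. Without the filter all 30 were fitted, 9 were lower and none higher, and the median was -2.47. In that fit the untested petD model GRMZM5G884960 had a log2 fold change of 0.66. Those of the Rubisco large subunit models GRMZM2G057171 and GRMZM2G308907 were 4.46 and 3.54. These rest on 6 counts in dek A and 3 in dek B, with no counts in WT. Of 74 nuclear genes 28 were tested, 5 lower and 3 higher in dek. Their median was -0.30, or 0.01 when libraries were scaled to total counts alone. That scaling moves log2 fold changes up by a median of 0.31 over all genes, and FPKM values carry no TMM scaling either. The difference between plastid and nuclear genes was not tested. Without dek A or without dek B 1 plastid model was called lower, while 14 were without WT A and 5 without WT B.

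Without any filter, by FPKM alone, both dek libraries lay below both WT libraries for 36 of the 104 genes (34.6%) and above them for 17 (16.3%), against 14.9% and 42.8% of the 34567 genes, or 57.6% in either direction. All 15 plastid models without overlap, of the 30, were below WT. Of the 74 nuclear genes 28.4% were below and 23.0% above.

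Photosystem II, which splits water, was represented by 12 genes, 8 of them plastid models. The 7 tested genes gave 4 lower and none higher. All 7 were lower at an unadjusted edgeR p under 0.05, a threshold for which no share of all genes is given. CP47, the core antenna protein encoded by psbB, had 3 models. At GRMZM2G427444, FPKM was 2.75 and 2.61 in dek A and B, against 3.77 and 17.13 in WT A and B. WT B stood far above the other libraries there, and the groups did not overlap. The log2 fold change was -2.52 ± 0.594 (SE; edgeR quasi-likelihood adjusted p = 0.0409), and limma on log2 FPKM made no call. At GRMZM5G808939, FPKM was 0.48 and 0.39 in dek, against 2.20 and 3.02 in WT, so that both dek libraries were well below both WT libraries. This was 7.14-fold lower in dek (edgeR adjusted p = 0.0132). The remaining psbB model, GRMZM2G427557, had 0.61 and 0.38 FPKM in dek, against 0.87 and 2.47 in WT, and did not pass (edgeR adjusted p = 0.052). Both psbB calls were lost without dek A and without dek B.

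D1, the reaction-centre protein encoded by psbA, had 3 models. GRMZM2G427369, whose description also names a ribosomal protein, had 0.36 and 0.24 FPKM in dek A and B, against 1.49 and 3.28 in WT A and B. The groups did not overlap, with WT B highest, and the gene was 7.27-fold lower in dek (edgeR adjusted p = 0.0386). GRMZM2G040858 had 1.08 and 0.60 FPKM in dek, against 1.55 and 7.04 in WT, and missed the threshold (edgeR adjusted p = 0.0651). GRMZM5G844143 had 0.26 and 0.38 FPKM in dek, against 0.19 and 0.95 in WT, which overlapped, and was too low to test. CP43, a core antenna protein encoded by psbC, was at 0.40 and 0.22 FPKM in dek for GRMZM5G856777, against 0.90 and 2.08 in WT. It was 5.94-fold lower in dek without overlap (edgeR adjusted p = 0.0279), and limma on log2 FPKM made no call. The psbA and psbC calls were lost without dek A, dek B or WT B. Among the 4 nuclear photosystem II genes only PsbY, a small subunit at GRMZM2G134130, was tested, with 2.18 and 1.86 FPKM in dek, against 3.90 and 2.75 in WT (log2 fold change -1.07 ± 0.401, edgeR adjusted p = 0.123).

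Photosystem I, which reduces ferredoxin, had 13 genes, of which 12 averaged under 1 FPKM. PsaB, a reaction-centre protein of the plastid genome, was at 0.52 and 0.28 FPKM in dek A and B for the model BGI_novel_G002232, against 2.20 and 3.33 in WT A and B. Both dek libraries were below both WT libraries, by a log2 fold change of -3.09 ± 0.458 (edgeR adjusted p = 0.0132). The call rests on 17 and 9 counts in dek and 71 and 97 in WT, so that the filter favoured a difference. It was lost without dek A or dek B. PsaF, the nuclear subunit at the plastocyanin side, was at 0.20 and 0.41 FPKM in dek for GRMZM2G085646, against 1.55 and 1.66 in WT. It was 6.34-fold lower without overlap (edgeR adjusted p = 0.0315), on 12 counts in all in dek and 59 in WT, and the call was lost without any 1 of the 4 libraries. The other PsaF gene, GRMZM2G017290, had 1 count in dek and 5 in WT, and was not tested. The PsaD, PsaE, PsaG, PsaK, PsaL and PsaN genes and the plastid psaC model were too low to test. The third tested gene, GRMZM2G100976, is described as photosystemI1 in the deposited tables but named NFU3 by RefSeq, and had 0.90 and 0.76 FPKM in dek, against 0.56 and 1.01 in WT.

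**Figure D2:**
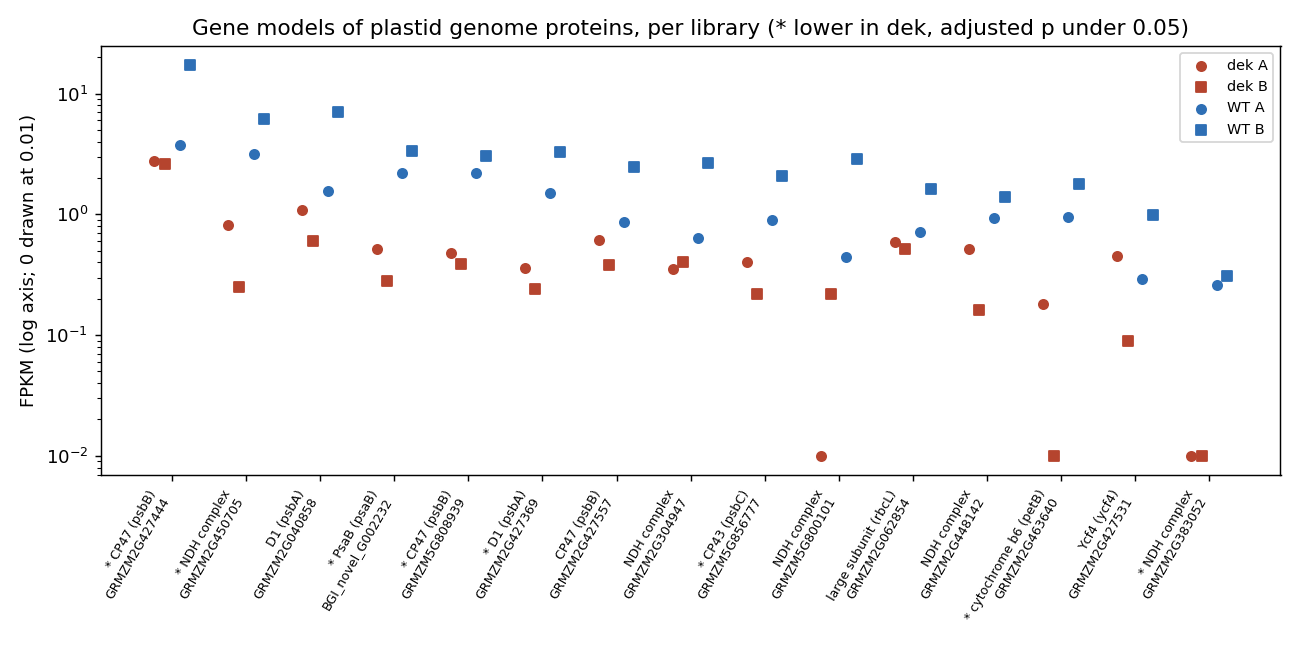
FPKM per library on a log axis for the 15 tested gene models of plastid genome proteins, dek A and B in red and to the left, WT A and B in blue and to the right, with values of 0 drawn at 0.01; a star marks genes lower in dek by edgeR. WT B is the highest library for all 15 models and most dek values lie under 1 FPKM.

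The antenna proteins that bind chlorophyll a and b gave 18 genes, all nuclear, of which 15 averaged under 1 FPKM and 3 were tested. The Lhcb1 gene cab-m1 (GRMZM2G351977), of the main photosystem II antenna, had 1.05 and 0.95 FPKM in dek A and B, against 2.43 and 3.24 in WT A and B. It was 3.64-fold lower in dek without overlap (edgeR adjusted p = 0.0396), and the call was lost without any 1 library and with total-count scaling. Another Lhcb1 gene, cab-m9 (GRMZM2G155216), had 1.03 and 1.22 FPKM in dek and 1.02 and 1.01 in WT, with an edgeR log2 fold change of -0.16 ± 0.395, and 0.14 under total-count scaling. The Lhca2 gene GRMZM2G038519, of the photosystem I antenna, was the most abundant antenna gene, with 7.60 and 6.90 FPKM in dek, against 3.26 and 2.73 in WT. Its libraries did not overlap and dek was the higher group, but the test missed the threshold (log2 fold change 0.95 ± 0.274, edgeR adjusted p = 0.0667) and passed only with total-count scaling among the scalings tried (edgeR adjusted p = 0.0268). The 2 Lhcb2 models, GRMZM2G414192 and GRMZM2G018627, had the same values in all 4 libraries, and both match the same RefSeq gene. The Lhca1, Lhca3, Lhca4, Lhca5, Lhcb4, Lhcb5 and Lhcb6 genes were too low to test.

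Cytochrome b6, the plastid-encoded core of the complex between the photosystems, had 0.18 FPKM in dek A and 0 in dek B at GRMZM2G463640, against 0.95 and 1.78 in WT A and B. The groups did not overlap (log2 fold change -4.09 ± 1.03, edgeR adjusted p = 0.0473), on 5 counts in dek and 67 in WT, and the call was lost without dek A, dek B or WT B. Subunit IV of the same complex, encoded by petD, had 0.91 and 1.45 FPKM in dek for GRMZM5G884960, against 0.29 and 0.97 in WT. These groups overlapped, and the 7 and 10 counts in dek and 2 and 6 in WT were too few to test. The Rieske protein and plastocyanin, which pass electrons on toward photosystem I, had 2 counts each over all 4 libraries.

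Among electron carriers the ferredoxins and their reductases were the genes with substantial levels. Ferredoxin 3, known in maize as the form of roots and other non-green tissue, had 566.79 and 680.37 FPKM in dek A and B, against 660.42 and 732.88 in WT A and B, and ranked between 87 and 120 among all listed genes in the 4 libraries. The ranges overlapped (log2 fold change -0.46 ± 0.147, edgeR adjusted p = 0.0856), although the DESeq2 Wald test called it lower. The ferredoxin gene GRMZM2G359127, with the lowest adjusted p of the 43 genes, had 1.36 and 2.94 FPKM in dek, against 22.63 and 16.50 in WT. Both dek libraries were far below both WT libraries, by 11.1-fold (log2 fold change -3.48 ± 0.419, edgeR adjusted p = 0.00803), and the call held under every setting tried. Ferredoxin-6 (GRMZM2G106190) had 19.21 and 24.50 FPKM in dek, against 39.50 and 56.33 in WT, again without overlap. It was 2.70-fold lower in dek (edgeR adjusted p = 0.0148), with an adjusted p of 0.0815 without dek A. The other ferredoxin gene above 10 FPKM, GRMZM2G095826, had 15.84 and 16.71 FPKM in dek and 14.23 and 16.25 in WT, which overlapped. Its edgeR log2 fold change was -0.21 ± 0.149, and 0.10 under total-count scaling. The genes fdx2 and fdx5 had 4 counts each over all libraries.

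Ferredoxin-NADP reductase was divided by gene. GRMZM2G320305, described as a chloroplastic-like form, had 3.92 and 4.30 FPKM in dek A and B, against 1.38 and 1.36 in WT A and B. Both dek libraries were above both WT libraries, by 2.42-fold (log2 fold change 1.28 ± 0.223, edgeR adjusted p = 0.0197), and adjusted p was 0.0887 without dek A and 0.12 without dek B. The more abundant fnr1 (GRMZM2G058760) had 41.45 and 41.30 FPKM in dek, against 31.58 and 32.45 in WT, and a log2 fold change of 0.07 ± 0.113 on the TMM scale (edgeR adjusted p = 0.722). The genes that RefSeq names L-FNRI (GRMZM2G168143) and L-FNRII (GRMZM2G059083) were low. L-FNRI had 0.33 and 0.38 FPKM in dek, against 0.50 and 0.92 in WT (edgeR adjusted p = 0.148), and L-FNRII was not tested.

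**Figure D3:**
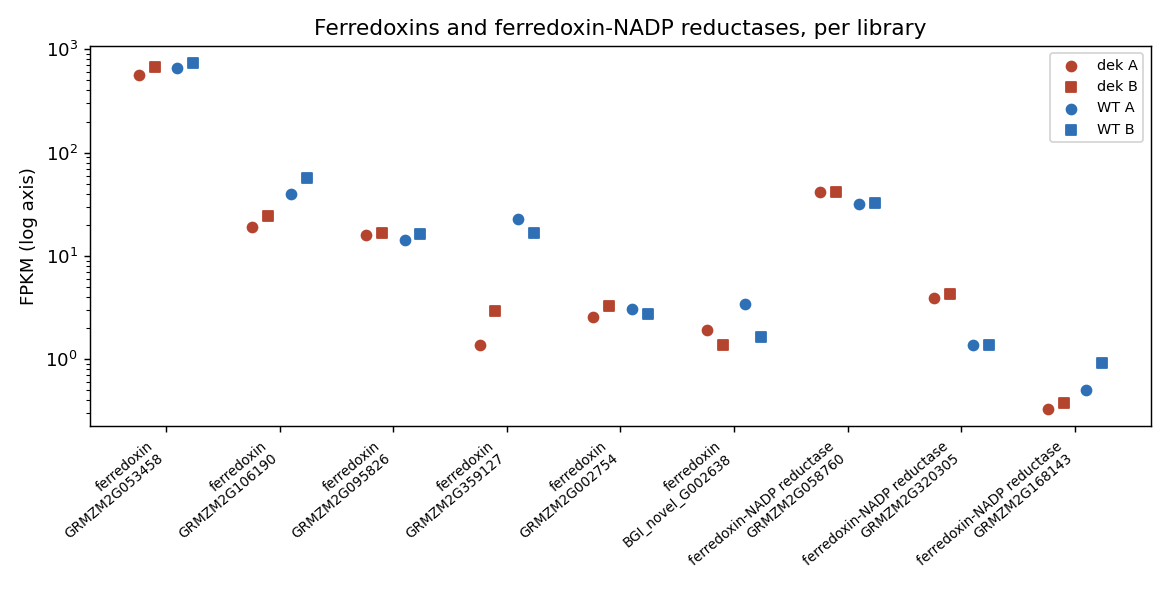
FPKM per library on a log axis for the 6 tested ferredoxin and 3 tested ferredoxin-NADP reductase genes, dek A and B in red and to the left, WT A and B in blue and to the right. GRMZM2G359127 and GRMZM2G106190 lie lower in dek, GRMZM2G320305 lies higher in dek, and GRMZM2G053458 (fdx3) is above the others in every library.

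Enzymes that take electrons from ferredoxin gave 7 genes. Sulfite reductase (GRMZM2G090338), which makes sulfide for cysteine synthesis, had 96.53 and 101.06 FPKM in dek A and B, against 39.10 and 50.52 in WT A and B. It was higher in both dek libraries than in either WT library, by 1.79-fold (log2 fold change 0.84 ± 0.156, edgeR adjusted p = 0.0227), but the call was lost without dek A, without dek B and without WT A. Ferredoxin-dependent glutamate synthase (fgs1, GRMZM2G036609), which builds glutamate, had 5.12 and 5.30 FPKM in dek, against 5.65 and 7.52 in WT. It did not pass (log2 fold change -0.64 ± 0.175, edgeR adjusted p = 0.06). Nitrite reductase (GRMZM2G079381) and the ferredoxin-thioredoxin reductase gene GRMZM2G122793 did not pass either, with edgeR adjusted p-values of 0.34 and 0.178. The variable chain of ferredoxin-thioredoxin reductase, GRMZM2G139803, was under the filter with 0 and 1 counts in dek and 9 and 23 in WT. This is a 42.2-fold lower ratio in dek, with an exact 95% interval, for counting error only, of 7.04 to 1720.

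Rubisco, the carbon-fixing enzyme, gave 11 genes, 2 tested, and no call by edgeR or the DESeq2 Wald test. The small subunit gene rbcS at GRMZM2G113033 had no counts in either dek library and 12 and 7 in WT A and B, at least 8.34-fold lower against a floor of 3 counts over the group. It was under the filter, and edgeR without a filter gave an adjusted p of 0.0484. The large subunit model GRMZM2G062854 (rbcL, a plastid gene) had 0.59 and 0.52 FPKM in dek, against 0.71 and 1.61 in WT, without overlap and without a call (log2 fold change -1.36 ± 0.424, edgeR adjusted p = 0.0816). Rubisco activase at GRMZM2G039345, which removes inhibitors from the enzyme, had 1.96 and 3.52 FPKM in dek, against 0.95 and 1.98 in WT. These overlapped (log2 fold change 0.61 ± 0.604, edgeR adjusted p = 0.518).

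Of 4 chlorophyll synthesis genes 2 were tested and none was called by edgeR or the DESeq2 Wald test, nor at an unadjusted p under 0.05. Protochlorophyllide reductase B (GRMZM2G036455), which carries out the light-dependent step, had 1.48 and 1.85 FPKM in dek A and B, against 0.89 and 1.22 in WT A and B. The groups did not overlap, but the log2 fold change of 0.38 ± 0.437 did not pass (edgeR adjusted p = 0.587). GRMZM2G171390, whose descriptions name chlorophyll synthesis enzymes, had 0.79 and 0.73 FPKM in dek and 0.29 and 0.87 in WT, which overlapped. Chlorophyllase (GRMZM2G127421), which removes the phytol tail, had 4 and 4 counts in dek and 1 and 0 in WT, and was not tested. The ratio was 6.07-fold higher in dek, with an exact 95% counting interval of 0.814 to 269.

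Among 4 assembly and stability genes, HCF136 (GRMZM2G102838), a factor for building photosystem II, had 0.96 FPKM in dek A and B alike, against 2.60 and 3.56 in WT A and B. It was 3.93-fold lower in dek without overlap (edgeR adjusted p = 0.0212), and the call was lost without dek A, dek B or WT B. The Hcf106C gene GRMZM2G151529, for protein transport into thylakoids, had 2.91 and 3.52 FPKM in dek and 3.02 and 3.58 in WT, which overlapped. The plastid ycf4 model GRMZM2G427531, for photosystem I assembly, was at 0.45 and 0.09 FPKM in dek and 0.29 and 0.98 in WT, and did not pass.

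The plastid NDH complex, which returns electrons to plastoquinone, came in through the word plastoquinone or with a neighbouring protein. GRMZM2G450705, a model for subunit 2, had 0.82 and 0.25 FPKM in dek A and B, against 3.16 and 6.11 in WT A and B. It was 11.1-fold lower in dek without overlap (edgeR adjusted p = 0.014), and the call remained without any 1 library. The ndhB model GRMZM2G383052, for the same subunit, had no counts in either dek library and 48 in WT, at least 21.1-fold lower against the floor of 3 counts (edgeR adjusted p = 0.0144), and this call was lost without dek A or dek B. For GRMZM2G383052 limma on log2 FPKM made no call. GRMZM5G800101, GRMZM2G304947 and GRMZM2G448142, also NDH models, were at 0.52 FPKM or less in dek and at 0.44 to 2.85 in WT, and did not pass.

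The rule also took in genes with no part in light capture. Ribulose-phosphate 3-epimerase (GRMZM2G083102), shared by the pentose phosphate pathway and the Calvin cycle, had 40.27 and 44.68 FPKM in dek A and B, against 17.97 and 21.74 in WT A and B. Both dek libraries were above both WT libraries, by 1.75-fold (log2 fold change 0.80 ± 0.155, edgeR adjusted p = 0.0247), and the call was lost without dek A, dek B or WT A. A methylthioribulose-phosphate dehydratase of methionine salvage, GRMZM2G574782, had 68.15 and 74.39 FPKM in dek, against 47.00 and 52.99 in WT, with a log2 fold change of 0.21 ± 0.129 on the TMM scale (edgeR adjusted p = 0.305).

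**Figure D4:**
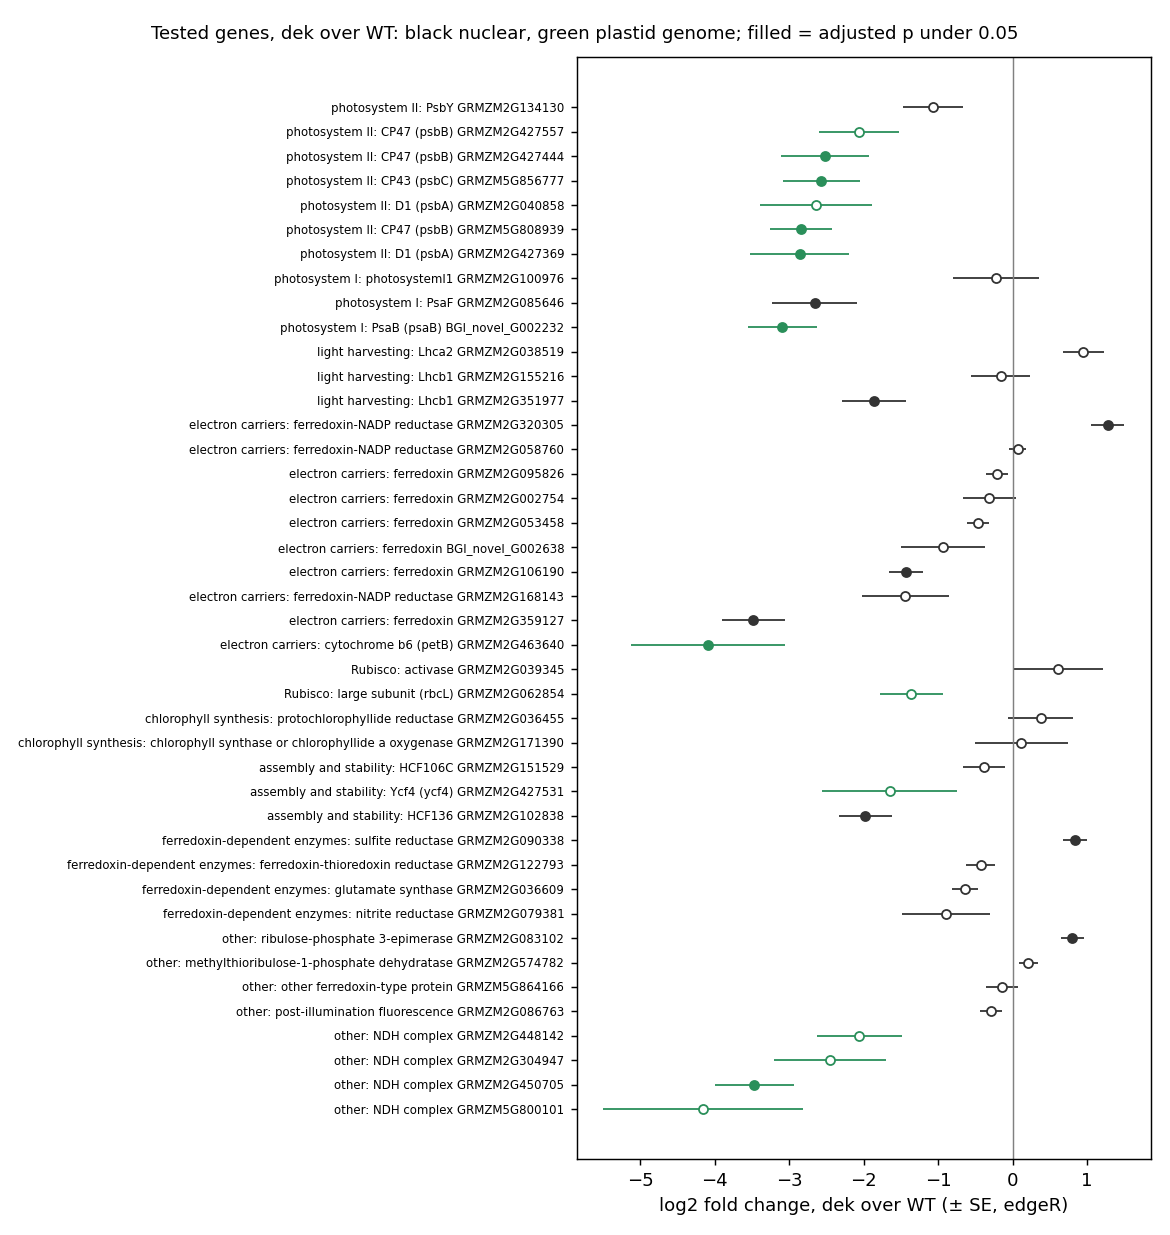
Log2 fold change, dek over WT, with its SE from edgeR for 42 of the 43 tested genes by role, leaving out GRMZM2G383052, which had no counts in dek; black points are nuclear genes, green points plastid genome models, and filled points passed an adjusted p of 0.05. Every plastid model lies left of 0, between -4.16 and -1.36, while nuclear genes lie on both sides.

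Plastid genome models of other proteins were examined beside those of photosynthesis. Summed over the 30 photosynthesis models, TMM-scaled CPM were 35.0 and 22.3 in dek A and B, against 92.7 and 237 in WT A and B. WT B was 2.56 times WT A, and WT A 2.65 times the higher dek library. For 57 other plastid genome models, such as ribosomal and RNA polymerase proteins, the sums were 158 and 104 in dek, against 325 and 683 in WT. There 18 of 34 tested models were lower in dek and none was higher, 2 had a positive log2 fold change, and the median log2 fold change was -2.09. The count was 2 without dek A, 1 without dek B and 9 without WT B. The 198 mitochondrial genome models summed to 1090 and 491 in dek, against 1760 and 6720 in WT, with WT B 3.82 times WT A. Of 66 tested mitochondrial models 2, or 3.03%, were lower in dek and none was higher. This is under the 8.85% lower of all genes tested. The log2 fold change was negative for 63 and positive for 2, with a median of -1.18. The DESeq2 Wald test called 10 mitochondrial models lower and none higher, and over all genes 2647 lower and 2155 higher. The median was -1.62 without WT A and -0.48 without WT B. The 74 nuclear genes summed to 1180 and 1380 in dek, against 1400 and 1570 in WT, and without fdx3 to 588 and 650 in dek, against 540 and 622 in WT. Among them, the 39 nuclear genes of the photosynthetic apparatus summed to 17.6 and 19.4 in dek, against 25.2 and 22.8 in WT. Of these 39, 7 were tested, 2 were lower in dek and none was higher. Organelle models in the nuclear annotation can be copies of plastid sequence that share reads, so values of single models are uncertain. Several models are long, with 6595 bases at GRMZM5G856777 (psbC), 6976 at GRMZM2G062854 (rbcL) and 7470 at GRMZM2G427557 (psbB). Where along a model the counts fell was not examined. Selection of poly(A) RNA is not stated, and the part of the high organelle level of WT B, or of library preparation, in these differences was not tested.

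**Figure D5:**
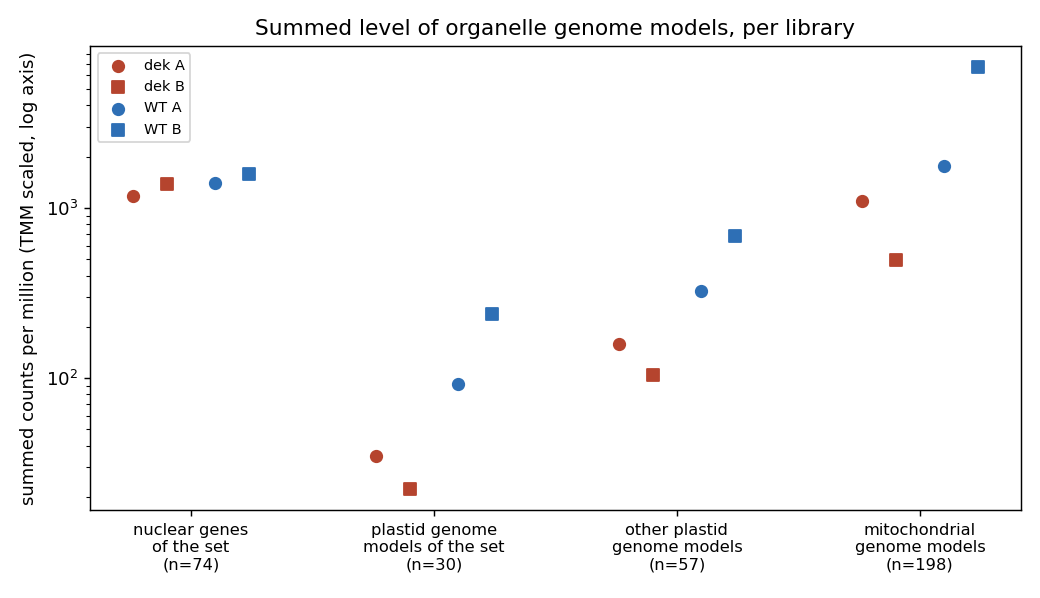
TMM-scaled CPM summed in each library on a log axis, dek A and B in red and to the left, WT A and B in blue and to the right, for nuclear and plastid genes of the set and for other plastid and mitochondrial genome models. The plastid sums are 35.0 and 22.3 in dek, against 92.7 and 237 in WT, and WT B is the highest library for all 3 kinds of organelle model.

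Other genes of plastid photosynthesis and pigment pathways, were taken from lists by description, outside the rule. Of 108 such genes in 9 lists, 84 were tested, and their median log2 fold change was -0.23. Of the 84, 5 were higher and 16 lower in dek, where 7.98% of all genes tested were higher and 8.85% lower. Of 20 tetrapyrrole genes, which lead to chlorophyll, heme and siroheme, all were tested, 3 were higher and 1 lower. Those that moved belong to the siroheme branch, which serves sulfite and nitrite reductase. Uroporphyrinogen III methyltransferase (GRMZM2G000739) had 12.40 and 10.77 FPKM in dek A and B, against 4.70 and 5.21 in WT A and B (log2 fold change 0.90 ± 0.17, edgeR adjusted p = 0.0236). A gene of the same description, sum1 (GRMZM2G105604), was higher as well (log2 fold change 1.30 ± 0.272, edgeR adjusted p = 0.0304), with the call lost without any 1 library. No tetrapyrrole gene was higher without dek A or without dek B, and 1 was without WT A.

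Sirohydrochlorin ferrochelatase had 2 models added by the authors, which match the same protein. BGI_novel_G000745 had 15.44 and 15.86 FPKM in dek A and B, against 6.39 and 5.87 in WT A and B, and was called higher (edgeR adjusted p = 0.0175). BGI_novel_G000746 was at 0 in both dek libraries, against 8.79 and 5.84 FPKM in WT, and was called lower (edgeR adjusted p = 0.00451). Their sum was 15.44 and 15.86 FPKM in dek, against 15.18 and 11.71 in WT, and since the models can share reads the opposite calls are uncertain.

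Of 6 Calvin cycle genes 5 were tested and 2 were higher, both ribose-5-phosphate isomerases, where 7.98% of all genes tested were higher. GRMZM5G891282 had 24.32 and 20.43 FPKM in dek A and B, against 8.59 and 8.68 in WT A and B (log2 fold change 1.07 ± 0.166, edgeR adjusted p = 0.0146). GRMZM2G104070 had 37.72 and 42.40 FPKM in dek, against 17.56 and 23.72 in WT (edgeR adjusted p = 0.0488). In neither gene did the groups overlap, and both calls were lost without dek A and without dek B, that of GRMZM2G104070 also without WT A. Of 12 genes of enzymes of C4 photosynthesis 10 were tested and 3 were lower, none higher, where 8.85% of all genes tested were lower. Pyruvate, phosphate dikinase, an enzyme of leaf C4 metabolism that is also abundant in cereal endosperm, was 280.35 and 544.63 FPKM in dek for GRMZM2G097457, against 4532.10 and 3524.08 in WT (log2 fold change -3.58 ± 0.359, edgeR adjusted p = 0.00524). A further gene of this enzyme, GRMZM2G306345, had 616.22 and 807.93 FPKM in dek, against 1289.98 and 1508.12 in WT (log2 fold change -1.23 ± 0.149, edgeR adjusted p = 0.00814). Both calls held without any 1 library. The NADP-malic enzyme gene GRMZM2G122479 was lower too (log2 fold change -0.84 ± 0.164, edgeR adjusted p = 0.0258), with the call lost without dek A or WT B.

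In the remaining 5 lists 29 genes were tested and 6, or 20.7%, were lower, where 8.85% of all genes tested were. Of 13 oxygen-evolving and thylakoid genes 5 were tested and 1 was lower, GRMZM2G176840, whose description also names a flavonol synthase (edgeR adjusted p = 0.0312), with the call lost without dek A, dek B or WT B. Of 7 plastid ATP synthase and NDH genes 3 were tested and the subunit 1 model GRMZM2G444541 was lower (log2 fold change -2.44 ± 0.436, edgeR adjusted p = 0.0208), with the call lost without dek B. Of 5 chlorophyll turnover genes 3 were tested and 1 was lower, pheophorbide a oxygenase (GRMZM2G349062), which opens the chlorophyll ring, with 2.54 and 2.16 FPKM in dek, against 3.95 and 3.63 in WT (edgeR adjusted p = 0.044), with the call lost without any 1 library. None of 10 tested light and greening regulators passed with edgeR or with the DESeq2 Wald test, and 1 had an unadjusted edgeR p under 0.05. Among them phytochrome C (GRMZM2G057935), the most abundant, had 11.01 and 8.69 FPKM in dek, against 5.86 and 7.31 in WT (edgeR adjusted p = 0.325). Of 8 tested plastid protein import genes 3 were lower, with log2 fold changes of -0.50 for GRMZM2G053019, -0.60 for GRMZM2G351125 and -0.80 for GRMZM2G353213, and the number was 0 without dek A and without dek B and 1 without WT A or WT B. With total-count scaling 2 import genes were higher and 1 lower, and the calls of GRMZM2G053019 and GRMZM2G351125 were lost.

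Carotenoid synthesis, which colours maize endosperm, had 25 genes, of which 20 were tested. Of the 20, 6 were lower and none higher, where 8.85% of all genes tested were lower. Beta-carotene hydroxylase (GRMZM2G152135) had 61.63 and 76.05 FPKM in dek A and B, against 108.83 and 119.02 in WT A and B (log2 fold change -1.01 ± 0.161, edgeR adjusted p = 0.0155). Phytoene desaturase (GRMZM2G410515) had 4.48 and 5.32 FPKM in dek, against 8.59 and 10.72 in WT (log2 fold change -1.26 ± 0.197, edgeR adjusted p = 0.015). Zeta-carotene desaturase (GRMZM2G454952) had 4.39 and 3.78 FPKM in dek, against 5.66 and 7.47 in WT (edgeR adjusted p = 0.0335). The widest gap was at phytoene synthase (yellow endosperm1, GRMZM2G300348), named after its values were seen, with 0.54 and 0.59 FPKM in dek, against 6.01 and 6.14 in WT (log2 fold change -3.73 ± 0.266, edgeR adjusted p = 0.0024), and its call remained without any 1 library. Without dek A 1 carotenoid gene was lower, without dek B 2 and without WT B 3. Scaled to total counts alone, 4 carotenoid genes were lower and 1 was higher.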

How the data were processed

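RNA was extracted by CTAB from endosperm of 2 dek and 2 WT pools, and sequenced with Illumina libraries, per the labels' protocols. Each library came with a table of genes and their lengths, expected counts and FPKM. The expected counts are RSEM-style estimates with no further normalization, as deposited by the authors. FPKM was scaled by the authors to gene length and counted fragments, per the file headers and values. The submitters' processing notes list Bowtie2, GATK, HISAT and RSEM without versions. The genome build is not stated, and no sequence or coordinate is printed. Genes missing from a table were taken as 0.

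Expected counts were rounded and fitted for all genes with edgeR 4.0.16 in R 4.3.3 (TMM factors 1.13 and 1.10 for dek A and B, 0.895 and 0.903 for WT A and B; filterByExpr with a minimum count of 10; two-sided quasi-likelihood test; Benjamini-Hochberg adjustment over 24624 genes). The SE is the log2 fold change over the square root of its F. With 2 against 2 libraries a label permutation cannot go below a two-sided p of 0.333, and the p-values depend on the fitted model. The method was also run on simulated counts, in which every gene had the same dispersion and libraries of a group differed in depth alone. That setting differs from these data, and no result here rests on that run. RefSeq names (assembly Zm-B73-REFERENCE-NAM-5.0) matched 78 of the 104 genes, 58 by model identifier and 20 by protein accession.

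The members, lists, roles and naming rule were chosen with earlier results of these data known. Genes named were, per role, up to 4 called genes with the highest mean FPKM, or 2 where none passed; the 5 highest and 5 lowest called fold changes with at least 1 FPKM in the higher group; and up to 3 called genes per list, or 1 where none passed. Other genes, among them fdx3, fnr1, fgs1, the Lhca2 gene, sum1 and the untested genes, were named after their values were seen. From the lists, 9 genes whose description named another protein were dropped. Alternatives were other scalings, DESeq2 1.42.0, limma 3.58.1 on log2 FPKM plus a pseudocount of 1 or 0.1, other filters, a replicate block by title letter, and each library left out.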

Additional observations from a re-analysis of the deposited data

How the results depend on the processing

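Counts below are genes higher, then lower, in dek. With total-count scaling they were 5 and 12 of the set (median log2 fold change -0.76), 11 and 9 of the pathway lists, and 4502 and 1279 of all genes. With limma on log2(FPKM + 1) they were 5 and 10 (median -0.35), 12 and 8, and 4483 and 1326, and with a pseudocount of 0.1 they were 5 and 10 (median -0.68), 11 and 8, and 4145 and 1260. The cause was not tested. Requiring a log2 fold change of at least 1 left 1 higher in the set, 3 higher and 10 lower in the lists, and 1283 lower among all genes. The labels do not say whether libraries of the same letter share an ear, and same-letter deviations correlated at r = -0.0224. The replicate block gave 2 and 6 of the set, 1 and 9 of the lists, and 811 and 1080 of all genes; 9 of the 16 calls of the set were lost with it, and other plastid models gave 4 lower. Counting the photosynthetic apparatus alone gave 0 and 8, and, chosen after seeing the data, the nuclear genes alone gave 5 lower and libraries not overlapping in FPKM 17 and 36; fewer or more genes are counted there by construction.

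Without 1 library, which leaves a lone sample assumed to vary like the other group, the set gave 0 to 3 higher and 2 to 19 lower with a median of -1.56 to -1.12. The pathway lists gave 0 to 6 higher and 5 to 13 lower, and all genes 281 to 1731 higher and 465 to 1966 lower. With DESeq2 size factors, upper-quartile factors, the DESeq2 Wald test, no filter, or 50 counts in 2 libraries, each count of the set, lists and all genes stayed within 1.5 times the reported one. No fold change of the 53 named genes with a fit changed sign past a threshold. Genes under 1 FPKM rest on few counts, and a difference there was often not detectable at this depth.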
